A study of Arabidopsis thaliana with 16 samples.

Results

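The first 7 d of somatic embryo culture were followed in the vitamin C-deficient *Arabidopsis thaliana* line *vtc2-5*, by setting explants after 7 d on induction medium (D7I) against the bent-cotyledon zygotic embryos from which culture starts. The 4 arrays of this step, 2 per stage, were chosen by their labelled genotype and stage out of 16 arrays in the series. D7I explants were zygotic embryos of *vtc2-5* that had been kept on a modified MS medium with the synthetic auxin 2,4-D, which induces callus. The zygotic embryos of *vtc2-5* were dissected by hand at the bent-cotyledon stage and had not been cultured. The mutant carries a homozygous T-DNA insertion in *VTC2* in the Col-0 background, and the same pair of stages in uncultured and cultured WT Col-0 served for comparison. It is a single insertion line, all 4 arrays share the insertion, and so the step is measured within 1 genotype. The age of the plants and the number of embryos pooled per array are not given in the sources used here. *VTC2* itself was not analysed here, because none of the named probe sets was paired with it, so the genotype labels were not checked on this gene.

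*VTC2* encodes GDP-L-galactose phosphorylase, which catalyses the first committed step of ascorbate synthesis through L-galactose. A bent-cotyledon embryo is green and is filling its cells with storage protein and oil. On 2,4-D, cells of such an embryo leave that programme, divide and form callus, from which somatic embryos later develop. Synthetic auxin acts through the same receptors as the natural hormone and induces, within hours, the early auxin genes of the *AUX/IAA*, *GH3* and *LBD* families.

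Transcripts were measured on ATH1 GeneChips, and the deposited signals are on a linear scale on which each array had been brought to the same trimmed mean. The 4 arrays had median signals of 147.5 to 187, and 69.2 to 73.7% of their probe sets lay above a signal of 30, below which values are treated here as weak. Replicates correlated across probe sets with r = 0.962 at D7I and 0.959 in zygotic embryos. Each difference is the mean log2 signal at D7I minus that in zygotic embryos, given ± the standard error that limma estimated over all 16 arrays, and p values were adjusted over 22746 probe sets. A probe set counts as called, and its gene as having risen or fallen, at an adjusted p under 0.05 and at least a 2-fold difference. With 2 arrays a group, described in the labels as biological replicates, p-values measure the spread between such arrays and their number limits the precision. Of the probe sets, 13513 were paired with 1 gene, and 1580 of these with a symbol that is not a locus number.

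The step was broad, and more probe sets rose than fell. At D7I, 4092 probe sets (18.0%) were called higher and 2760 (12.1%) lower than in zygotic embryos. The differences were often large. At least 8-fold differences were seen in 1034 higher and 905 lower probe sets, and at least 32-fold differences in 306 and 263. Of the probe sets called higher, 1152 (28.2%) had a weak mean signal in zygotic embryos, and of those called lower, 669 (24.2%) had a weak mean signal at D7I, so the size of these differences is uncertain. Among the probe sets called lower, the first D7I array lay above the second in 64.2%, against 57.1% of all probe sets. The median over all probe sets was 0.19 on the log2 scale. Median centring of the arrays moved that median to -0.065, quantile normalization moved it to 0.049, and the split of calls moved with it, to 3215 higher and 3429 lower under median centring.

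**Figure D1:**
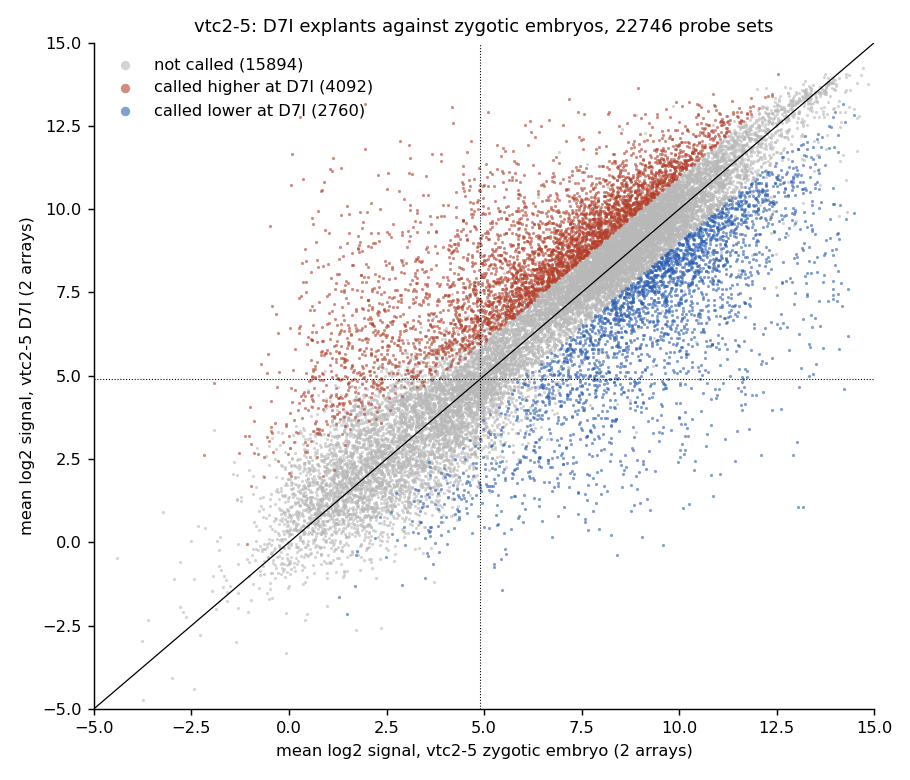
Mean log2 signal of each of 22746 probe sets in *vtc2-5* D7I explants (vertical axis) and in *vtc2-5* zygotic embryos (horizontal axis), each a mean of 2 arrays; red and blue points were called higher (4092) and lower (2760) at D7I, grey points were not called, and dotted lines mark a signal of 30. Many coloured points lie far from the diagonal, on both sides.

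Among the genes with the largest falls were photosystem genes and genes with annotated roles in lipid transport and lipid metabolism. AT1G62070, a locus with no annotated role here, had signals of 2.96 and 1.49 at D7I, against 10877 and 7840 in zygotic embryos (-12.10 ± 0.51, adjusted p = 3.05e-07). The apoplastic protein encoded by AT1G09750, annotated to proteolysis, had 31.5 and 35.4 at D7I, against 10190 and 11777 in zygotic embryos (-8.36 ± 0.36, adjusted p = 3.19e-07). *PSAN*, a subunit of photosystem I, reached 36.1 and 28.6 at D7I, against 9712 and 10800 in zygotic embryos (-8.32 ± 0.73, adjusted p = 1.78e-05). In each case both D7I arrays were weak or close to it, while both zygotic embryo arrays were among the brightest of the chip. *LHCB4.2*, an antenna protein of photosystem II, had 62.6 and 62.5 at D7I, against 10634 and 10068 in zygotic embryos (-7.37 ± 0.33, adjusted p = 3.93e-07). AT5G38195, annotated to lipid transport, had 24.1 and 27.1 at D7I, against 9112 and 8063 in zygotic embryos (-8.39 ± 1.18, adjusted p = 0.00034).

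Other loci with lipid terms were also among the 12 largest falls. Of 27 probe sets for lipid transfer proteins only 3 entered as a group, of which 1 was called lower and 0 higher. The lipid transfer protein AT5G38170 had 309 and 59.2 at D7I, against 18544 and 18303 in zygotic embryos, and AT5G38160 had 311 and 72.8 at D7I, against 16426 and 17132 in zygotic embryos. For both, the 2 zygotic embryo arrays were nearly equal and the D7I arrays lay far apart, and without the second D7I array AT5G38170 was no longer called (-5.90, against -7.09 ± 1.64 with it). AT5G48490 differed by -7.62 ± 0.58 and the carboxylesterase AT1G71691 by -6.75 ± 0.68. Also in this set were AT4G04460, annotated to proteolysis and lipid metabolism (21.7 and 12 at D7I, 7281 and 5418 in zygotic embryos), the epoxide hydrolase AT3G05600 (23.4 and 10.5 at D7I, 5637 and 4985 in zygotic embryos) and *AtVEX1*. *AtVEX1*, a sugar transporter of the SWEET family, had 11.0 and 3.39 at D7I, against 3771 and 5067 in zygotic embryos (-9.49 ± 1.15, adjusted p = 0.000129).

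The largest rises were seen in genes with weak signals in zygotic embryos. AT2G43590, a locus with no annotated role here, had 8586 and 9746 at D7I, against 3.6 and 4.15 in zygotic embryos (11.21 ± 0.51, adjusted p = 3.93e-07). *LCR67*, a small secreted defensin, had 6755 and 7301 at D7I, against 0.759 and 1.94 in zygotic embryos (12.50 ± 2.18, adjusted p = 0.00127). The beta-glucosidase *BGLU28* had 6337 and 6010 at D7I, against 27.0 and 12.4 in zygotic embryos (8.40 ± 0.41, adjusted p = 6.03e-07). The D7I arrays of these genes lay close to each other while every zygotic embryo signal was weak, so the groups are far apart and the size of the difference is uncertain. *NDB4*, an external NADH dehydrogenase of the mitochondrial inner membrane, had 3266 and 4572 at D7I, against 20 and 3.59 in zygotic embryos (8.83 ± 0.62, adjusted p = 4.42e-06). *M17*, a late embryogenesis abundant gene, had 1351 and 2771 at D7I, against 0.258 and 6.28 in zygotic embryos (10.57 ± 1.25, adjusted p = 0.00011).

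The other 7 of the 12 are loci with no role given in the annotation used here. They are AT1G47400, AT1G12030, AT2G19970, AT2G41730, AT2G34080, AT2G47780 and AT3G18280, whose differences ran between 6.15 (AT3G18280) and 10.42 (AT1G12030). AT3G18280 had the highest zygotic embryo signals of them, with 10320 and 10044 at D7I, against 194 and 106 in zygotic embryos.

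**Figure D2:**
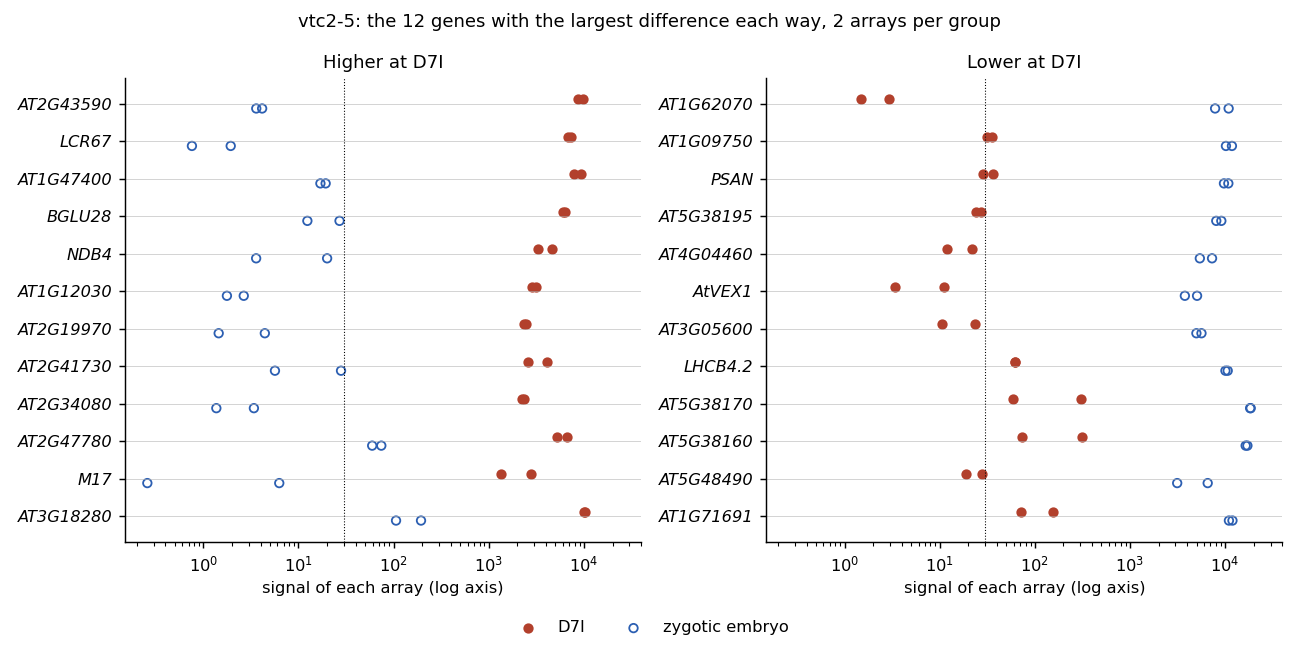
Signal of each *vtc2-5* array (log axis) for the 12 genes with the largest difference each way, D7I as filled red points and zygotic embryo as open blue points, with a dotted line at a signal of 30. Genes entered only if the arrays of the stages did not overlap, so the gap between the stages is no result. For 10 of the 12 genes higher at D7I both zygotic embryo signals are below 30.

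The most abundant transcripts changed in another manner. The 5 named genes with the highest mean signal at D7I (AT5G20290, AT1G52300, AT3G09200, AT3G49910 and AT1G67430) were not called, with differences of -0.30 to 0.14. AT5G20290, for example, had 15503 and 16450 at D7I, against 19480 and 19849 in zygotic embryos. The 5 highest in zygotic embryos were AT3G01570, *OLEO3*, AT2G34700, AT1G54860 and AT1G04660, and their differences ran from -1.83 to -4.55. AT1G04660 was the one called, with 1315 and 540 at D7I, against 17608 and 22004 in zygotic embryos (adjusted p = 0.0389), and it was no longer called when any 1 of the 4 arrays was left out (-5.19 to -3.90). The other 4 were called lower when the fit held the 4 *vtc2-5* arrays alone. With array weights *OLEO3*, AT2G34700 and AT1G54860 were called as well, and AT2G34700 also with the offset of 30 (-4.34) and with a trended prior.

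Gene groups differed widely along the step. Among the groups plotted by their members' differences, nuclear photosynthesis genes had the lowest median and genes of the ER body, an organelle of the Brassicaceae that stores beta-glucosidases, the highest. The ER body group was chosen after values were seen. The groups are described by the number of members called and by their median difference, beside the median of 0.19 and the shares of 18.0% called higher and 12.1% called lower over all probe sets. Counts near these shares are no result about a group, and no group was tested against them. A member counts as measured where a probe set was paired with it alone and it had a name of its own or a role in the sources. Most loci carry a number only, so that 12 of 69 listed nuclear photosynthesis genes, 4 of 10 probe sets for seed storage, 12 of 34 for late embryogenesis abundant genes and 5 of 55 for class III peroxidases entered.

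**Figure D3:**
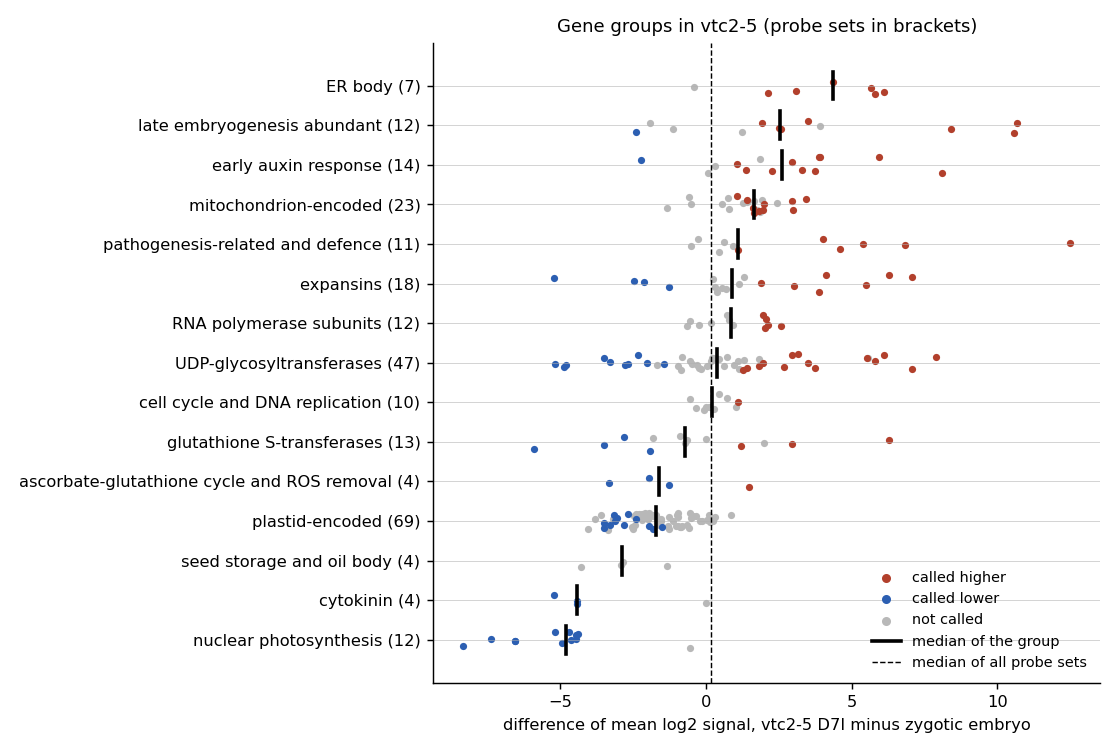
Difference of mean log2 signal between *vtc2-5* D7I explants and zygotic embryos for the probe sets of selected gene groups (red called higher, blue called lower, grey not called), with the median of each group as a bar and the median of all probe sets, 0.19, as a dashed line. Medians of the groups plotted run from -4.80 for nuclear photosynthesis genes to 4.35 for ER body genes, a group chosen after values were seen.

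Photosynthesis genes in the nucleus fell almost without exception. Of 12 measured members 11 fell and 0 rose, with a median difference of -4.80. Their summed signal was 3553 and 3554 at D7I, against 122723 and 117686 in zygotic embryos. In whole explants, fewer green cells and less RNA per cell cannot be told apart. *PSAE-1*, a stromal subunit of photosystem I, had 191 and 121 at D7I, against 15260 and 13511 in zygotic embryos (-6.56 ± 0.32, adjusted p = 6.01e-07). *PRK*, the phosphoribulokinase of the Calvin cycle, had 143 and 90.1 at D7I, against 11426 and 9856 in zygotic embryos (-6.55 ± 0.32, adjusted p = 6.29e-07). The photosystem II subunits *PSBW* and *PSBY*, the antenna genes *LHCB4.1* and *LHCB4.3*, rubisco activase (*RCA*) and *SBPASE* fell by between 4.45 and 5.19 on the log2 scale. A single member was not called. *ATPC2*, the second gene for the gamma subunit of the chloroplast ATP synthase, had 321 and 280 at D7I, against 466 and 415 in zygotic embryos (adjusted p = 0.0707), whereas its paralogue *ATPC1* fell by 4.40.

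Genes encoded in the plastid itself were mostly lower at D7I, and few were called. Of 69 measured plastid genes, 12 fell (17.4%, against 12.1% over all probe sets), 0 rose, and 63 had a difference below 0, with a median of -1.72. *petB*, cytochrome b6 of the electron transport chain, had 839 and 1104 at D7I, against 9955 and 8993 in zygotic embryos (-3.30 ± 0.66, adjusted p = 0.00289). *psbK*, a small subunit of photosystem II, had 302 and 418 at D7I, against 3808 and 4213 in zygotic embryos (-3.49 ± 0.77, adjusted p = 0.00479). *psbL* and *psbI* fell by 3.05 and 1.96. The calls close to the threshold were not stable, since *psaB* (-3.16 ± 1.13, adjusted p = 0.0499) was no longer called when any 1 array was left out (-3.36 to -2.95) and *psbE* was not called without the first D7I array (-2.85) or the second zygotic embryo array (-3.06). Neither the large subunit of rubisco, *rbcL*, with 146 and 183 at D7I and 630 and 368 in zygotic embryos, nor *psbA*, with 414 and 267 at D7I and 2675 and 1347 in zygotic embryos, was called. The highest value was that of *rpoB*, a subunit of the plastid-encoded RNA polymerase, at 0.86 from signals near the weak range. When the fit held the 4 *vtc2-5* arrays alone, 41 of the 69 were called lower.

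Of 23 probe sets for 16 mitochondrion-encoded genes 10 were called higher (43.5%) and 0 lower, with a median of 1.64. *ccb452*, which serves cytochrome c maturation, had 731 and 816 at D7I, against 183 and 201 in zygotic embryos (2.01 ± 0.19, adjusted p = 3.16e-05). All 3 called probe sets of *nad1*, a subunit of complex I, rose by 1.64, 1.96 and 3.00. *cox1*, a core subunit of cytochrome c oxidase, had 1206 and 991 at D7I, against 411 and 233 in zygotic embryos, and its call was lost without the second zygotic embryo array (1.41, against 1.82 with it). The maturase *matR* showed the largest difference (52.1 and 84.2 at D7I, 4.46 and 8.50 in zygotic embryos), from weak signals.

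Of 11 probe sets for nuclear respiratory genes, 4 were called higher and 0 lower, with a median of 0.90. Besides *NDB4*, the related dehydrogenase *NDB2* rose strongly, with 1126 and 1351 at D7I, against 91.2 and 103 in zygotic embryos (3.67 ± 0.17, adjusted p = 4.27e-07). *NDB1* and *NDB3* were not called, and *NDC1*, outside that list, the calcium-independent form that is also sent to plastids, fell by 1.15, a call lost without the second zygotic embryo array (-1.0). The succinate dehydrogenase subunits *SDH1-1* and *SDH2-2* rose by 1.25 and 1.22, and both lost the call after median centring (1.0 and 0.96).

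Of 12 measured subunits of the nuclear RNA polymerases, a group chosen after values were seen, 5 rose (41.7%), 0 fell and 7 were not called, with a median of 0.86. *NRPA1* and *NRPA2*, which form the catalytic core of polymerase I, rose by 2.08 and 2.15. *NRPA2* had 1969 and 1815 at D7I, against 419 and 435 in zygotic embryos (adjusted p = 5.69e-05). *NRPC1* and *NRPC2*, the corresponding pair of polymerase III, rose by 2.57 and 2.02, and the small subunit *NRPB12* by 1.97. The other polymerase II, IV and V subunits (*NRPB6A*, *NRPB7*, *NRPB9A*, *NRPB9B*, *NRPD7*, *NRPE7* and *NRPB6B*) were not called and lay between -0.65 and 0.94.

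Most early auxin response genes were higher after 7 d on 2,4-D. Of 14 measured members, out of 37 listed, 10 rose and 1 fell, with a median of 2.63. *GH3.3*, an enzyme that joins auxin to amino acids, had 7239 and 7778 at D7I, against 569 and 550 in zygotic embryos (3.75 ± 0.22, adjusted p = 1.79e-06). *GH3.1*, of the same family, had 939 and 1466 at D7I, against 2.83 and 6.41 in zygotic embryos (8.11 ± 0.54, adjusted p = 3.25e-06). *WES1* and *GH3.17*, both *GH3* genes, rose by 3.91 and 2.97. All 4 measured *GH3* genes of the group were thus called. AT5G51470, which the paper lists as an auxin-responsive GH3 family protein, was not in the group. It had 26.5 and 6.49 at D7I, against 6.17 and 1.64 in zygotic embryos, and was not called (2.04 ± 1.43, adjusted p = 0.303).

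*LBD16*, a transcription factor of lateral root and callus formation, had 1980 and 2619 at D7I, against 136 and 171 in zygotic embryos (3.90 ± 0.33, adjusted p = 1.36e-05), while *LBD29* stayed under 10 in all 4 arrays and was not called. The auxin-induced homeobox gene *HAT2* rose by 3.29. The *AUX/IAA* repressors did not move as one. *IAA29* rose by 5.95, with 500 and 552 at D7I, against 6.91 and 10.4 in zygotic embryos. *IAA20* rose by 2.28, *IAA33* by 1.38 and *IAA30*, close to the 2-fold threshold, by 1.06. In the whole early auxin group, 9 members were called higher after quantile normalization and 9 after median centring, against 10 as reported. *IAA31* was lower, with 26.3 and 13.8 at D7I, against 77.2 and 102 in zygotic embryos (-2.22 ± 0.70, adjusted p = 0.0288), a call lost without the second D7I array (-1.76) and without either zygotic embryo array (-2.43 and -2.02). *IAA18*, at 220 and 245 at D7I and 246 and 195 in zygotic embryos, was not called, and neither was *IAA34*. *WAG2*, a kinase of auxin transport, rose by 1.26, a difference that was under 2-fold after quantile normalization (0.94).

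**Figure D4:**
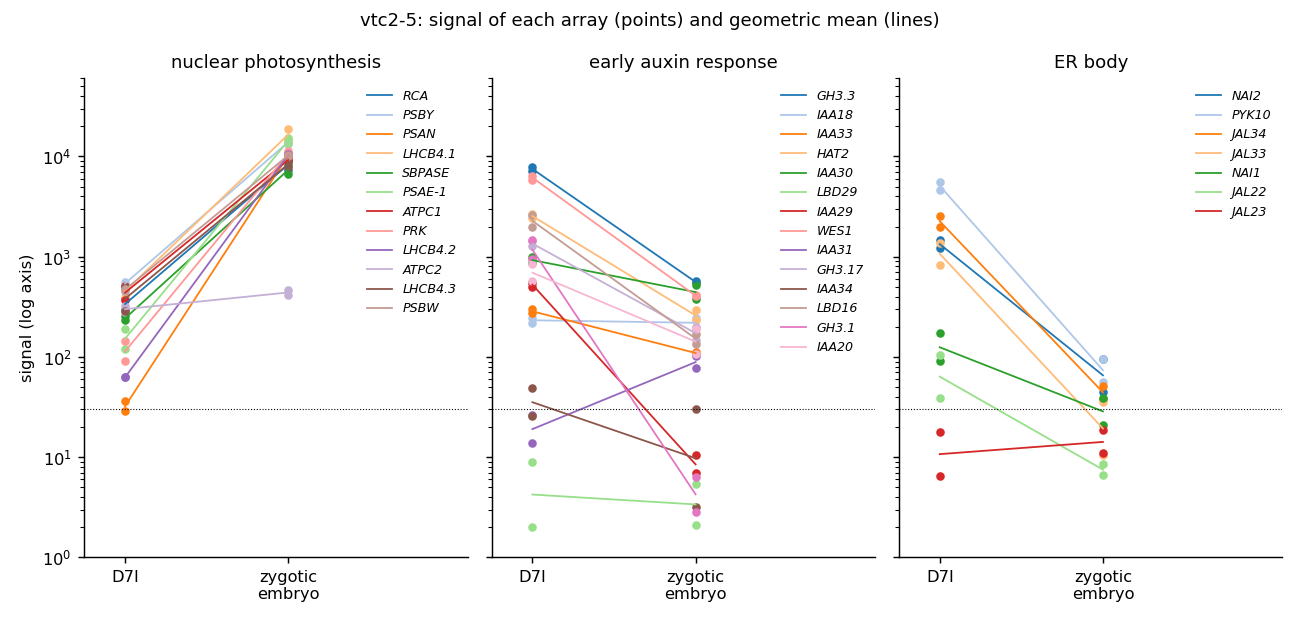
Signal of each *vtc2-5* array (points, log axis) for the measured members of 3 gene groups, D7I at the left and zygotic embryo at the right of each panel, with lines joining the geometric means of the 2 arrays of each stage and a dotted line at a signal of 30. Of the members drawn, 11 of 12 photosynthesis genes fell, 10 of 14 early auxin genes rose and 6 of 7 ER body genes rose. The ER body group was chosen after values were seen.

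Genes of other hormones and of embryo patterning moved less evenly. Of 4 measured cytokinin genes 3 fell, all response regulators. *RR16* had 12.3 and 7.91 at D7I, against 206 and 219 in zygotic embryos (-4.43 ± 0.73, adjusted p = 0.000889), and *ARR15* and *RR22* fell by 4.41 and 5.22 from zygotic embryo signals under 60. The type-B regulator *RR18* was weak in all 4 arrays. Of 5 gibberellin genes 1 rose, the receptor *GID1B*, with 318 and 322 at D7I, against 32.3 and 47.2 in zygotic embryos (3.04 ± 0.41, adjusted p = 0.000256). The receptors *GID1A* and *GID1C* differed by 0.70 and 0.49 and were not called. In the ethylene pathway the receptor regulator *RTE1* fell by 1.56 and the transcription factor *EIN3*, at 0.21, was not called.

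Of 4 measured embryo and meristem regulators, out of 52 listed, 2 rose. *PHV*, which sets the upper side of lateral organs, had 2875 and 2464 at D7I, against 862 and 847 in zygotic embryos (1.64 ± 0.19, adjusted p = 0.000113). *AGL18*, a MADS-box factor known to promote somatic embryogenesis in *Arabidopsis*, had 244 and 317 at D7I, against 85.5 and 112 in zygotic embryos (1.51 ± 0.20, adjusted p = 0.000195). *BBM*, whose overexpression is known to induce somatic embryos, was expressed at both stages, with 530 and 464 at D7I and 401 and 356 in zygotic embryos, and was not called. The stem cell signal *CLV3* had 7.48 and 3.04 at D7I, against 39.8 and 56.5 in zygotic embryos (-3.31 ± 1.2, adjusted p = 0.0513). It was called lower after quantile normalization (-3.47), after median centring (-3.57) and with the offset of 30 (-1.14). Among 42 probe sets of AGAMOUS-like factors 33 were weak at both stages, 3 were called higher (7.14%) and 2 lower (4.76%), both under the shares over all probe sets. With the offset of 30, 1 was called higher and 1 lower. *AGL21* (0.80), *AGL99* (0.37) and *AGL24* (-0.46) lost the call there. *AGL24* also lost it without the second D7I array (-1.32) or the second zygotic embryo array (-1.40), and *AGL99* without either D7I array (3.3 and 4.11) or the second zygotic embryo array (2.94). The largest difference was that of *AGL87*, with 52.7 and 25.9 at D7I, against 4087 and 2645 in zygotic embryos (-6.48 ± 1.06, adjusted p = 0.000848).

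Of 10 measured cell division genes, out of 94 listed, 1 rose and 0 fell, with a median of 0.20 that was -0.05 after median centring. *ICU2*, the catalytic subunit of DNA polymerase alpha, had 289 and 314 at D7I, against 155 and 129 in zygotic embryos (1.09 ± 0.25, adjusted p = 0.00551), but stayed under 2-fold after quantile normalization (0.83), after median centring (0.84), with an offset of 30 (0.95) and without the second zygotic embryo array (0.96). *AUR1*, a mitotic kinase, had 1340 and 1594 at D7I and 1300 and 866 in zygotic embryos, and *TOPII* had 819 and 849 at D7I and 908 and 823 in zygotic embryos. Neither was called. Of 7 histone genes, the drought-inducible linker histone *HIS1-3* rose by 4.91, with 1028 and 850 at D7I, against 24.8 and 39.0 in zygotic embryos, the linker histone *HON4* fell by 1.09 and the core histones measured were not called.

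Seed reserve genes stayed at high signals at D7I while lying below the zygotic embryos. The oleosin *OLEO3*, which coats oil bodies, had 5127 and 2277 at D7I, against 21496 and 27317 in zygotic embryos. *PAP85*, a vicilin-like storage protein, had 8279 and 7117 at D7I, against 17258 and 21975 in zygotic embryos. The nutrient reservoir loci AT1G03890 (2628 and 1074 at D7I, 9662 and 16235 in zygotic embryos) and AT4G36700 (1236 and 644 at D7I, 15875 and 19467 in zygotic embryos) lay apart in the same way. The median difference of the 4 was -2.86. Of these 4, 0 were called in the fit of 16 arrays, in which their standard errors were 1.46 to 2.37 and adjusted p values 0.16 to 0.57, and 4 were called lower in the fit of the 4 *vtc2-5* arrays, in which the standard errors were 0.22 to 0.59 and the adjusted p values 0.0109 to 0.0397.

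Late embryogenesis abundant genes, whose products protect drying cells, were mostly higher where they were called. Of 12 measured members 7 rose and 1 fell, with a median of 2.55, and with the 4 arrays alone 8 rose and 3 fell. *M10* had 1328 and 2196 at D7I, against 0.660 and 1.63 in zygotic embryos (10.69 ± 2.43, adjusted p = 0.00585). *DI21* had 8617 and 8488 at D7I, against 1701 and 1324 in zygotic embryos (2.51 ± 0.24, adjusted p = 2.8e-05). The dehydrins *COR47* and *LTI30* rose by 2.58 and 1.92. *COR15A* and *COR15B*, a pair of chloroplast cold-response proteins, went opposite ways at low signals. *COR15A* had 42.5 and 30.9 at D7I, against 3.97 and 2.56 in zygotic embryos, and *COR15B* had 21.1 and 11.2 at D7I, against 84.0 and 77.6 in zygotic embryos (-2.39 ± 0.59). The offset of 30 ended the call of *COR15A* (1.0), and leaving out the second D7I array that of *COR15B* (-1.93). *LEA* (3253 and 3125 at D7I, 9841 and 15093 in zygotic embryos) and *AtLEA4-1* (2787 and 2946 at D7I, 5626 and 7071 in zygotic embryos) were called lower in the fit of 4 arrays alone. *LEA18*, with 7409 and 7172 at D7I and 421 and 540 in zygotic embryos, was called higher there alone (adjusted p = 0.0649 with 16 arrays, 0.00673 with 4).

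Of 5 probe sets for 4 genes of lipid reserve mobilization, 1 was called higher and 2 lower, with a median of -0.87. Both lower ones belong to *SDRB*, a peroxisomal reductase of fatty acid breakdown. The first had 903 and 746 at D7I, against 2695 and 2263 in zygotic embryos (-1.59 ± 0.27, adjusted p = 0.00102), and the second had 895 and 947 at D7I, against 3100 and 3149 in zygotic embryos (-1.76 ± 0.23, adjusted p = 0.000212). *ICL*, the isocitrate lyase that turns fatty acid carbon into sugar after germination, had 11521 and 14417 at D7I, against 3897 and 5962 in zygotic embryos, and was not called (1.42 ± 0.68). *SDP1*, the main oil body lipase, rose by 1.01, a call lost after quantile normalization (0.89), after median centring (0.76), with the offset (0.95), with the 4 arrays alone, and without the second D7I (0.91) or the first zygotic embryo array (0.81). Of 4 vacuolar processing enzymes, the proteases that mature storage proteins, *ALPHA-VPE* fell by 6.34, with 36.4 and 21.1 at D7I, against 2647 and 1891 in zygotic embryos, and *DELTA-VPE*, a form of the inner seed coat, fell by 5.59, with 13.7 and 12.8 at D7I, against 713 and 568 in zygotic embryos. *BETA-VPE* and *GAMMA-VPE* were well above the weak range at both stages and were not called.

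Genes of the ER body, a group chosen after values were seen, mostly rose. Of 7 measured members 6 rose and 0 fell, with a median of 4.35. *PYK10*, the beta-glucosidase that fills the organelle, had 5599 and 4622 at D7I, against 96.2 and 56.5 in zygotic embryos (6.11 ± 0.27, adjusted p = 3.65e-07). *NAI2*, needed to form the organelle, had 1472 and 1209 at D7I, against 44.9 and 95.7 in zygotic embryos (4.35 ± 0.30, adjusted p = 4.1e-06). *NAI1*, the transcription factor on which both depend, rose by 2.13, with 172 and 90.6 at D7I, against 20.9 and 39.2 in zygotic embryos. The jacalin-related lectins *JAL34*, *JAL33* and *JAL22*, partners of *PYK10*, rose by 5.67, 5.79 and 3.08, and *JAL23* was weak at both stages. The summed signal of the 7 was 11308 and 8786 at D7I, against 250 and 283 in zygotic embryos.

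The wider family of beta-glucosidases was split. Of 20 measured members, among which *PYK10* was not counted, 4 rose (20%) and 6 fell (30%), with a median of 0.46. *BGLU19* had 1770 and 1877 at D7I, against 1.93 and 1.80 in zygotic embryos (9.93 ± 2.00, adjusted p = 0.00297). *BGLU40* had 85.9 and 39.4 at D7I, against 1985 and 1961 in zygotic embryos (-5.08 ± 0.40, adjusted p = 8.45e-06). *BGLU45* and *BGLU46*, which release monolignols, fell by 1.65 and 2.81. Of 4 glucosinolate genes 2 fell, among them *AOP3*, an enzyme of side-chain modification, with 538 and 216 at D7I, against 9827 and 12862 in zygotic embryos (-5.04 ± 1.55, adjusted p = 0.0261), whose call was lost when any 1 of the 4 arrays was left out (-5.70 to -4.39).

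Defence genes were higher where they moved. Of 11 measured members 6 rose and 0 fell, with a median of 1.11. *OSM34*, an osmotin-like protein, had 430 and 421 at D7I, against 1.81 and 7.48 in zygotic embryos (6.85 ± 0.51, adjusted p = 6.75e-06). The defensins *PDF1.2b* and *PDF1.4* and the receptor kinase *EFR*, which senses bacterial elongation factor, rose by 5.39, 4.60 and 4.02. *LCR69* and *LCR68*, defensins that were bright at both stages, were not called, and neither was *PDF1.2*. Of 9 plant U-box ubiquitin ligases 4 rose and 0 fell, and the immune regulators *PUB22* and *PUB23* had the largest differences. *PUB23* had 530 and 378 at D7I, against 2.22 and 5.18 in zygotic embryos (7.05 ± 0.58, adjusted p = 1.14e-05). The WRKY factors *WRKY6* and *WRKY47* rose by 6.05 and 4.51, and *WRKY22* fell by 1.69.

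Families of conjugating enzymes held members called in each direction. Of 47 UDP-glycosyltransferases, which add sugars to small molecules, 14 rose (29.8%) and 10 fell (21.3%), with a median of 0.38. *UGT87A2* had 4026 and 3848 at D7I, against 68.4 and 71.6 in zygotic embryos (5.81 ± 0.24, adjusted p = 2.96e-07). *UGT73B4* and *UGT76B1*, which acts on immune signals, rose by 7.90 and 7.08. *UGT78D1*, which acts on flavonols, had 295 and 215 at D7I, against 1559 and 1648 in zygotic embryos (-2.67 ± 0.36, adjusted p = 0.000269), and *UGT78D2*, which acts on flavonoids, fell by 1.42. *UGT84B1*, which conjugates auxin to glucose, had 5.49 and 1.56 at D7I, against 130 and 87.1 in zygotic embryos (-5.18 ± 0.71, adjusted p = 0.000287).

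Of 13 glutathione S-transferases 3 rose (23.1%) and 4 fell (30.8%), with a median of -0.70. *GSTU25* and *GSTU20*, both of the tau class, stood at the extremes. *GSTU25* had 3076 and 2226 at D7I, against 32.7 and 33.8 in zygotic embryos (6.30 ± 0.29, adjusted p = 4.03e-07). *GSTU20* had 252 and 111 at D7I, against 9549 and 10300 in zygotic embryos (-5.89 ± 0.32, adjusted p = 1.01e-06). Of 26 cytochrome P450 genes 1 rose (3.85%), *CYP71B6* by 1.81, and 4 fell (15.4%), all of the same *CYP71B* subfamily, so that these shares lay under and near those over all probe sets. Of 5 named class III peroxidases, secreted enzymes that act on hydrogen peroxide at the wall, 4 rose and 1 fell. Among those that rose, AT4G08780 and AT2G22420 have no symbol here and entered through a role given in the paper. The paper lists both as higher in the mutant than in WT during induction, from these same arrays. The split thus depends partly on how members were picked, and it is no result about the family. *Prx37* had 596 and 677 at D7I, against 11.4 and 4.93 in zygotic embryos (6.40 ± 0.57, adjusted p = 1.8e-05), and *PRXR1*, the brightest of the group, had 7438 and 5382 at D7I, against 18048 and 21230 in zygotic embryos (-1.63 ± 0.27, adjusted p = 0.000996).

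Wall-loosening genes rose in part. Of 18 expansins 7 rose (38.9%) and 4 fell (22.2%), with a median of 0.91. *EXPA8* had 1653 and 1779 at D7I, against 16.3 and 29.8 in zygotic embryos (6.28 ± 0.39, adjusted p = 2.32e-06). *EXPA4*, the brightest, had 6780 and 7151 at D7I, against 753 and 998 in zygotic embryos (3.01 ± 0.19, adjusted p = 2.54e-06). *EXLA2* rose by 7.06, and *EXPB1* fell by 5.20, with 81.0 and 39.0 at D7I, against 1919 and 2216 in zygotic embryos. Among 10 xyloglucan endotransglucosylases, 4 rose and 1 fell, and *XTH19* (1137 and 1539 at D7I, 115 and 85.8 in zygotic embryos) and *XTH20* (642 and 339 at D7I, 22.3 and 35.2 in zygotic embryos) had the largest rises. Of 15 glycosyl hydrolases of family 9, the endoglucanases, 4 rose (26.7%) and 4 fell (26.7%). *GH9B13* had 7633 and 7017 at D7I, against 542 and 385 in zygotic embryos (4.00 ± 0.23, adjusted p = 1.36e-06). A pectin methylesterase, *ATPMEPCRD*, had 23.8 and 22.5 at D7I, against 3281 and 2886 in zygotic embryos (-7.05 ± 0.44, adjusted p = 2.22e-06), and *ATPMEPCRB* of the same family rose by 5.23.

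Membrane and wall families without a common direction included the tetraspanins, of which 3 of 15 rose (20%) and 3 fell (20%), and the TRICHOME BIREFRINGENCE-LIKE wall acetyltransferases, of which 3 of 22 rose (13.6%) and 3 fell (13.6%). These shares are near the 18.0% and 12.1% over all probe sets. *TET5* had 940 and 1182 at D7I, against 28 and 41.7 in zygotic embryos (4.95 ± 0.60, adjusted p = 0.000129), and *TET8* had 969 and 644 at D7I, against 3234 and 3534 in zygotic embryos (-2.10 ± 0.26, adjusted p = 0.000165). Of 29 serine carboxypeptidase-like genes, 6 rose (20.7%) and 3 fell (10.3%), also near those shares. *scpl35* and *scpl20* had the highest D7I signals among those that rose (3174 and 3346, and 2857 and 2702), with zygotic embryo signals of 439 and 238, and 386 and 370. Of 8 subtilases, serine proteases of the apoplast, 1 rose and 3 fell. *SBTI1.1* had 36.5 and 24.2 at D7I, against 4997 and 2020 in zygotic embryos (-6.74 ± 0.67, adjusted p = 3.81e-05).

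Ascorbate genes are of interest because the line is impaired in this pathway. Of 4 measured genes of ascorbate synthesis, *PMM*, phosphomannomutase, rose, with 2809 and 2923 at D7I, against 1379 and 919 in zygotic embryos (1.35 ± 0.22, adjusted p = 0.0009). *GME*, GDP-mannose epimerase, fell, with 2490 and 2547 at D7I, against 5678 and 5515 in zygotic embryos (-1.15 ± 0.14, adjusted p = 0.000121), and was just under 2-fold after quantile normalization (-0.97). *GLDH*, which catalyses the last step in the mitochondrion, and *VTC4*, the galactose phosphatase, differed by 0.69 and -0.30 and were not called.

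In the ascorbate-glutathione cycle, which removes hydrogen peroxide, 1 of 4 measured genes rose and 3 fell. Both chloroplast ascorbate peroxidases fell. *TAPX*, bound to thylakoids, had 89.8 and 82.9 at D7I, against 849 and 877 in zygotic embryos (-3.32 ± 0.32, adjusted p = 3.38e-05), and the stromal *SAPX* had 410 and 355 at D7I, against 1596 and 1362 in zygotic embryos (-1.95 ± 0.19, adjusted p = 3.51e-05). Glutathione reductase showed opposite changes in its organellar and cytosolic forms. *GR*, the organellar gene, had 945 and 789 at D7I, against 2251 and 1902 in zygotic embryos (-1.26 ± 0.19, adjusted p = 0.000463), and *GR1*, the cytosolic gene, had 4003 and 4508 at D7I, against 1450 and 1632 in zygotic embryos (1.47 ± 0.18, adjusted p = 0.000131). Of 4 methionine sulfoxide reductases, which repair oxidised methionine, 1 rose and 2 fell. *MSRB5* rose by 5.73, *MSRB9* fell by 5.42 and *MSRB6* fell by 3.61 (adjusted p = 0.0382), a call lost without the first D7I (-3.92), the second D7I (-3.3) or the second zygotic embryo array (-2.74).

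Transport and nutrient genes changed individually. Of 17 sugar transporters 2 rose (11.8%) and 4 fell (23.5%). *SWEET11*, a sucrose exporter that feeds the embryo from maternal seed tissue, had 90.9 and 63.8 at D7I, against 5728 and 3628 in zygotic embryos (-5.90 ± 0.29, adjusted p = 6.62e-07). *SWEET17*, a fructose carrier of the vacuole, rose by 2.11. Among 5 bHLH factors, most of them regulators of iron uptake, *BHLH101* rose, with 578 and 262 at D7I, against 3.21 and 2.14 in zygotic embryos (7.21 ± 0.55, adjusted p = 7.7e-06), and *bHLH104*, *bHLH115*, *bHLH34* and *bHLH121* were not called, with differences of 0.33 to 0.98. *APL3*, a subunit of the first committed enzyme of starch synthesis, rose by 3.62, and the secreted amylase *AMY1* fell by 3.66. Of 12 senescence and autophagy genes 4 rose (33.3%) and 4 fell (33.3%). Within the *ATG8* family, whose products build autophagosomes, *ATG8G* rose by 1.98, with 1474 and 1544 at D7I, against 482 and 301 in zygotic embryos, and *ATG8C* fell by 1.78, with 838 and 672 at D7I, against 2434 and 2734 in zygotic embryos. *PDC2*, a pyruvate decarboxylase of fermentation, had 2085 and 1972 at D7I, against 368 and 384 in zygotic embryos (2.43 ± 0.21, adjusted p = 1.6e-05).

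Markers of other tissues could be read in part. Of 8 seed coat markers 1 was paired with a probe set. *BAN*, a gene of seed coat tannin synthesis, had 1.76 and 1.83 at D7I, against 262 and 108 in zygotic embryos (-6.55 ± 0.86, adjusted p = 0.00022). *DELTA-VPE* and *SWEET11*, described above, are also known from the seed coat, and their part in the falls above was not tested. The endosperm regulator *AGL62*, the single member read of 8 endosperm markers, was at 13.6 and 12.8 at D7I and 11.3 and 19.1 in zygotic embryos, in the weak range at both stages. Of 12 epidermal and stomatal markers 4 were read and 2 fell. *SPCH*, which starts the stomatal lineage, had 3.74 and 4.66 at D7I, against 184 and 213 in zygotic embryos (-5.57 ± 0.66, adjusted p = 0.000116), and *STOMAGEN*, a signal from green mesophyll, had 3.62 and 29.8 at D7I, against 912 and 874 in zygotic embryos (-6.43 ± 1.08, adjusted p = 0.00104). The root hair expansins *EXPA7* and *EXPA18* (61.4 and 43.6 at D7I, 46.4 and 9.5 in zygotic embryos) and 2 pollen markers, *MGH3* and *AGL104*, both weak, were not called. *EXPA7* had 38.1 and 11 at D7I, and 23.8 and 8.05 in zygotic embryos. Of 16 markers listed for maturing embryos and 6 for vascular tissue 0 had a paired probe set. The zygotic embryo label is therefore taken from the sample labels and was not checked on such markers.

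Genes that the paper lists were picked there as differing between the mutant and WT at some stage, on these same arrays. Counts over such a list are no result about a group. Over all probe sets, 18.0% were called higher and 12.1% lower. Among the 25 genes that the paper names and that were measured here, 10 rose and 3 fell between the stages in *vtc2-5*. Besides those given above, the AIG1-type locus AT4G09940 had 257 and 368 at D7I, against 2.19 and 1.3 in zygotic embryos (7.51 ± 0.68, adjusted p = 2.21e-05). The peroxidases AT4G08780 and AT2G22420 rose by 5.86 and 2.14, the wound-responsive locus AT5G58750 by 2.25 and the defensin *PDF2.5* by 2.82. The last of these was not called without the first D7I array (1.75), without the second zygotic embryo array (2.36) or with the 4 arrays alone. The glyoxal oxidase-related AT1G19900 fell by 5.90, with 3.83 and 2.08 at D7I, against 71.5 and 396 in zygotic embryos. Among those not called were the lipid transfer protein AT5G01870, bright at both stages (11897 and 12493 at D7I, 10493 and 8851 in zygotic embryos), the sucrose-phosphatase AT2G35840, at 0.08, and the glutaredoxin AT5G18600, at 0.54.

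The same step in WT was used to ask which changes are shared. In WT, 3571 probe sets (15.7%) were called higher and 2725 (12%) lower at D7I. Of these, 2736 were called higher in both genotypes (66.9% of the calls in *vtc2-5* and 76.6% of those in WT) and 1923 lower in both (69.7% and 70.6%). Opposite calls were made for 21 probe sets. The log2 differences of the 2 genotypes, which share no array, correlated across probe sets with r = 0.81, and with r = 0.89 after an offset of 30. Genes are not independent replicates, and the value is a description. A call in one genotype alone was common, in 2172 probe sets for *vtc2-5* and 1616 for WT, but the difference between the genotypes itself was called for 36 of these 2172.

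The change itself differed between the genotypes in 105 probe sets. It was higher in *vtc2-5* than in WT for 84 (0.369%) and lower for 21 (0.0923%), and 57 of the 105 were paired with 1 gene. *SCPL27*, a serine carboxypeptidase-like gene, shared the smallest adjusted p with AT1G16310. In *vtc2-5* it had 87.5 and 88.1 at D7I, against 34.5 and 37.3 in zygotic embryos, and in WT 14.9 and 10.6 at D7I, against 69.8 and 61.8 in zygotic embryos (difference of the changes 3.68 ± 0.35, adjusted p = 0.00857). It rose in the mutant and fell in WT, at modest signals, and its rise in *vtc2-5* was under 2-fold after quantile normalization (0.92) and with the offset (0.84). AT1G33055 had 1654 and 1554 at D7I and 3327 and 2380 in zygotic embryos in *vtc2-5*, and 219 and 117 at D7I and 3628 and 4473 in zygotic embryos in WT (3.84 ± 0.43, adjusted p = 0.014). It was not called within *vtc2-5* and fell by 4.65 in WT.

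**Figure D5:**
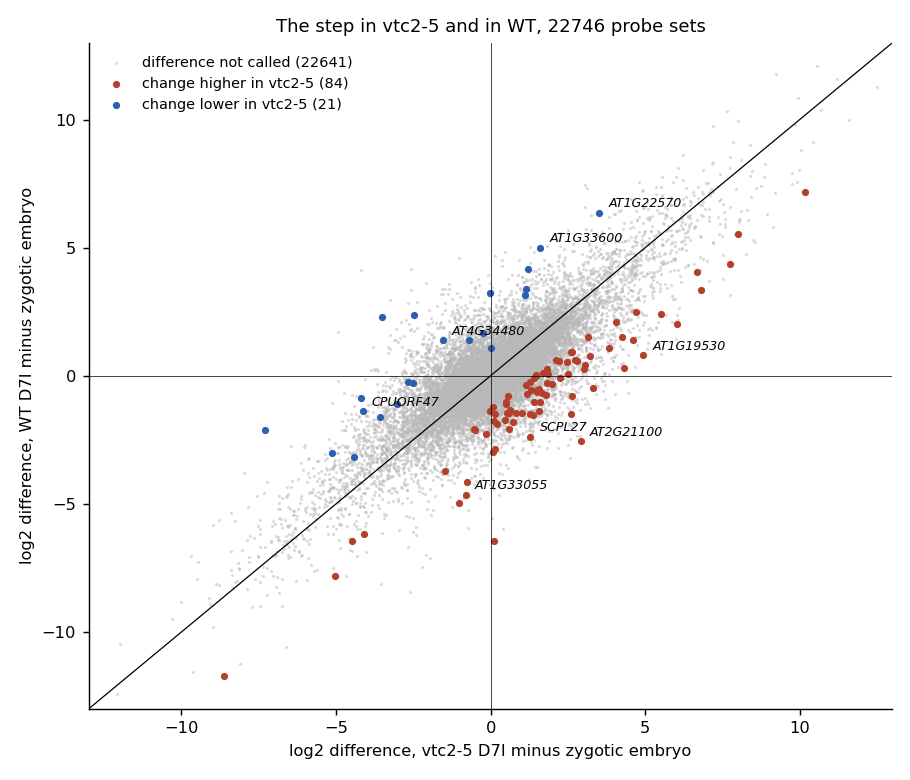
Log2 difference between D7I and zygotic embryos in *vtc2-5* (horizontal axis) and in WT (vertical axis) for 22746 probe sets, each difference from 2 arrays per stage; red and blue points are the 84 and 21 probe sets whose change was called higher and lower in *vtc2-5* than in WT, and the diagonal marks equal changes. Most probe sets follow the diagonal, and 8 of the coloured genes are named.

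Of the 10 genes named on the higher side, those that rose in *vtc2-5* were not called or fell in WT. AT1G19530 had 753 and 465 at D7I and 11.3 and 32.6 in zygotic embryos in *vtc2-5*, and 122 and 57.1 at D7I and 48.8 and 47.9 in zygotic embryos in WT (4.16 ± 0.71, adjusted p = 0.0465). AT2G18360 rose by 1.57 in *vtc2-5* and fell by 1.38 in WT. AT4G19980 and AT5G51440 rose by 3.02 and 2.80 in *vtc2-5* and, at 0.27 and 0.56, were not called in WT. AT2G21100 showed the largest difference of the 20 genes named, 5.46 ± 0.75, at low signals (22.3 and 15 at D7I and 2.37 and 2.5 in zygotic embryos in *vtc2-5*, 30 and 22 at D7I and 303 and 74.9 in zygotic embryos in WT). With the offset of 30 neither its rise in *vtc2-5* (0.58) nor the difference was called. *UGT76C2*, which inactivates cytokinins by glucosylation, is not one of these 10. It rose by 1.83 in *vtc2-5* and differed by -0.27 in WT (adjusted p of the difference by limma 0.0393). That difference was no longer called after median centring, with the replicate block or with the compared groups alone.

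On the lower side, AT4G34480, annotated as an O-glycosyl hydrolase, had 190 and 183 at D7I and 426 and 690 in zygotic embryos in *vtc2-5*, and 417 and 593 at D7I and 196 and 187 in zygotic embryos in WT (-2.92 ± 0.37, adjusted p = 0.0194). *CPUORF47*, a gene with a conserved upstream reading frame, fell by 4.14 in *vtc2-5* and by 1.39 in WT, with 140 and 88.9 at D7I and 2296 and 1690 in zygotic embryos in *vtc2-5*, and 281 and 300 at D7I and 910 and 638 in zygotic embryos in WT (-2.75 ± 0.39, adjusted p = 0.0315). *SBT3.5*, a subtilase, was not called in *vtc2-5* (-0.23) and rose by 1.68 in WT. *SBT3.5* had 113 and 144 at D7I and 136 and 164 in zygotic embryos in *vtc2-5*, and 203 and 271 at D7I and 75.5 and 70.7 in zygotic embryos in WT. For these 3 genes the zygotic embryos of *vtc2-5* were brighter than those of WT and the D7I explants dimmer. AT1G33600, at 61.6 and 70.4 at D7I and 21.2 and 21.8 in zygotic embryos in *vtc2-5*, rose less there (1.61, and 0.90 with the offset) than in WT (4.99).

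These differences rest on few arrays. Without the first *vtc2-5* D7I array 0 probe sets were called by limma for the difference (2598 at an unadjusted p under 0.05), and without the second 9. Leaving out the first or second *vtc2-5* zygotic embryo array left 67 and 72, and leaving out a WT array left 56 to 75. With the 4 groups of this comparison alone, 0 were called (3196 at an unadjusted p under 0.05, against 3359 with 16 arrays). Of the 57 genes, *SCPL27*, AT1G33055, AT4G34480, AT1G33600, AT1G16310, AT1G13610, AT2G43390, AT1G05577 and AT5G53320 kept the call under 7 of 8 other settings and in at least 6 of the 8 fits that left out 1 array. The setting that ended each of these calls was the fit of the compared groups alone. Of these genes, AT1G16310 was weak in all 8 arrays. AT2G43390 had 0.813 and 0.747 at D7I and 0.459 and 1.14 in zygotic embryos in *vtc2-5*. In WT it had 0.956 and 0.613 at D7I and 107 and 43.2 in zygotic embryos, so its difference came from WT.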

How the data were processed

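The submitters' processing notes name GCOS as the tool. The intensities, as deposited by the authors, are on a linear scale with a 2% trimmed mean of about 500 on each array (495 to 497 as recomputed). They are not the RMA values named in the methods. Log2 was taken with no offset. Groups were compared in limma 3.58.1 (R 4.3.3) over 16 arrays and 8 groups, with 8 residual and 1.62 prior degrees of freedom, and Benjamini-Hochberg adjustment over 22746 probe sets (64 controls left out). The difference of the changes is a contrast of that fit. Gene names come from the platform annotation, with 13436 probe sets matched to RefSeq locus tags. No sequences or coordinates were used. Members of a list with no symbol and no role in the sources were not described.

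Members, lists and the rule for named genes were chosen with earlier results of these data known. The groups for RNA polymerases, U-box ligases, the ER body, methionine sulfoxide reductases, carboxypeptidases, wall acetyltransferases, family 9 hydrolases, vacuolar processing enzymes, tetraspanins and alternative dehydrogenases were added, and symbols that stand for another gene dropped, after values were seen. The rule took up to 12 genes each way by the difference of log2(signal + 30) with stages that do not overlap, up to 4 each way of a list, up to 10 each way for the difference between genotypes, the 5 brightest of each stage, and genes the paper names. The text also gives other members of the groups, and some genes from the comparison with WT, that this rule did not take. Multiclass SAM, the methods' test, covers all groups at once and was not run. Alternatives were another filter, scaling, offset, weighting, prior, set of arrays, threshold, replicate block and 1 probe set per gene.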

Additional observations from a re-analysis of the deposited data

Results flagged for a closer look

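Genes named here passed a test of the difference between the genotypes, that is, the change between zygotic embryo and D7I in *vtc2-5* minus that in WT, on the log2 scale. On the higher side these were AT2G21100 (5.46), AT1G19530 (4.16), AT1G33055 (3.84), *SCPL27* (3.68), AT2G18360 (2.95), AT4G19980 (2.75), AT4G19865 (2.65), AT2G11910 (2.48), AT3G25150 (2.26) and AT5G51440 (2.25). AT3G25150 and AT4G19865 were not called within *vtc2-5* and fell by 1.44 and 2.06 in WT.

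On the lower side these were AT1G33600 (-3.37), AT4G34480 (-2.92), AT1G22570 (-2.85), *CPUORF47* (-2.75), AT5G13140 (-2.12), AT3G10720 (-2.05), AT3G53400 (-1.95), AT3G19000 (-1.92), *SBT3.5* (-1.91) and AT1G76185 (-1.08). AT1G76185 had 220 and 212 at D7I and 218 and 212 in zygotic embryos in *vtc2-5*, and 373 and 341 at D7I and 173 and 164 in zygotic embryos in WT. No stage held enough arrays for a test of single arrays that stand apart.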

How the results depend on the processing

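Both counts of the step stayed within 1.5 times under 9 of the other settings, and when arrays were left out in turn (3583 to 3924 higher and 2340 to 2653 lower). With 1 probe set per gene they were 2251 and 1387, over 13356 tested, and with 2-fold alone 4176 were lower. Calls for the difference between genotypes, 105 as reported, became 213 with a filter at a signal of 30, 46 with median centring, 372 with an offset of 30, 399 with a trended prior, 0 with limma on the compared groups only (3196 at an unadjusted p under 0.05), 40 with 1 probe set per gene and 6018 with 2-fold alone. They ran from 0 (2598 at an unadjusted p under 0.05) to 75 when 1 array was left out, and 46, 87 and 68 of the 105 were kept with median centring, the offset and quantile normalization. The cause was not tested. The replicate number as a block gave 4054 higher and 2739 lower, 33 for the difference (31 of them among the 105), and ended 4 calls of single genes. The deviations of same-numbered arrays from their group means correlated at -0.137 to 0.165 over 28 pairs of groups (-0.0317 for the 2 *vtc2-5* stages). The labels give only a number, and such correlations cannot decide whether same-numbered arrays shared a culture or a batch. Of 228 named genes that were called, 176 kept the call under every setting, 52 lost it under at least 1 and 0 reversed, and of 26 not called, 7 gained one. The named genes counted here are the 254 that the rule took. Other genes given in the text, such as *GH3.17* and *LBD16*, are not in this count. Weak signals and 2 arrays a group limit the sizes given.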
